A study of Mus musculus with 6 samples.

Results

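The clustered protocadherins of mouse chromosome 18 were followed in CGNs given GSK-126, an inhibitor of the histone methyltransferase EZH2. Members were the gene symbols of the count tables that read Pcdha, Pcdhac, Pcdhb, Pcdhga, Pcdhgb or Pcdhgc followed by a number. This gave 57 of 55341 symbols, with 13 in the alpha cluster, 22 in the beta cluster and 22 in the gamma cluster. The rule reads names only, and it was set with earlier results of these data known. CGNs came from cerebella of CD1-IGS mice at P6 to P8, after a Percoll gradient for granule neuron progenitors, and all cultures received AraC at DIV2 against dividing non-neuronal cells. At DIV3 3 cultures were given DMSO and 3 were given GSK-126, and polyA RNA was collected at DIV5, while the labels name cerebellum and DIV3. The dose at DIV3 is not given in the sources used here. A replicate was CGNs of pooled litters, so a library is a mixture of animals and of the cells that such cultures keep. The comparison asks whether blocking EZH2 from DIV3, in CGNs already past the cell cycle, alters their RNA. The paper picked DIV3 as a day when many promoters of early genes already carried the mark that EZH2 writes. Another of its experiments treated newly postmitotic CGNs at an earlier day.

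Clustered protocadherins are cell surface adhesion proteins that bind the same isoform on a facing membrane, and a neuron's mix of isoforms lets its branches recognise and avoid each other, as in the dendrites of Purkinje cells. In the alpha and gamma clusters each isoform has its own promoter and variable exon, which is spliced to constant exons that the cluster shares. Beta genes have a variable exon only. Each neuron uses few of the alternate promoters, picked through looping that needs CTCF and cohesin, and promoters not picked carry DNA methylation and repressive histone marks. The C-type isoforms, Pcdhac1, Pcdhac2, Pcdhgc3, Pcdhgc4 and Pcdhgc5, are expressed more uniformly.

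The libraries held 7407189 to 13092763 counts on genes, and the members took 6041 to 10647 of them, which was 0.0813% to 0.0876%. Values are CPM, the counts of a gene relative to the TMM-scaled total of its library, unless a length is named. Libraries with the same replicate number resembled each other in both groups, so each test is given without and with the replicate number as a block. Granule neuron markers were present, with 10 genes summing to 2536 to 5420 CPM, while astroglia markers (7 genes) summed to 2230 to 7661 CPM, vascular and fibroblast markers (9 genes) to 5113 to 7833 CPM and microglia markers (7 genes) to 188 to 502 CPM. RNA that marks other cell types was thus present beside that of CGNs. The vascular and fibroblast sum exceeded the granule neuron sum in every library, and the astroglia sum did so except in replicate 2 of both groups. Sums of different genes do not give shares of cells. All levels given here are those of the whole mixture and not of CGNs alone. In such bulk RNA, fewer cells of a type and less RNA per cell cannot be told apart.

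Reads on the constant exons fit several genes, and HTSeq sets such reads aside, so alpha and gamma values come from the variable exons. Between 0.883% and 1.10% of reads per library were set aside as fitting more than 1 gene. To compare genes, CPM was divided by the length of exon that no other gene covers on the same strand, called own exon here, which ran from 494 bases in Pcdha4 to 8695 bases in Pcdhb14. The variable exon of Pcdha4 is covered by the annotated read-through gene Gm42416 over 2410 bases, where reads fit both genes and are set aside. No exon base of Gm42416 is its own. Its 0 counts in all 6 libraries were therefore fixed by the annotation and say nothing about its RNA. The symbol Pcdha11 covers 2 gene identifiers, ENSMUSG00000007440.10 and ENSMUSG00000102206.5, whose counts stand in the tables under that name, and no symbol Pcdha10 was present. Runs of at least 100 identical bases with another member were found in the first exons of 30 members, over up to 27.1% of that exon in Pcdha7 and 20.7% in Pcdhgb1, and in no C-type gene. Counts of such genes are less certain, since a read inside such a run has more than 1 origin.

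Among the C-type genes, Pcdhgc3 (ENSMUSG00000102918.1, chromosome 18, 37806364 to 37841873, GRCm38) was by far the highest. It had 265, 213 and 242 CPM in the DMSO libraries and 262, 175 and 215 CPM with GSK-126, a mean over the 6 libraries 6.54 times that of the next member. Per kb of own exon this was 71.0 ± 7.61 CPM in the DMSO group and 64.3 ± 12.9 CPM in the GSK-126 group (SD, n = 3 each). Pcdhgc3 protein is known to bind Axin1 and to dampen Wnt signalling. It took 41.9% to 51.8% of all gamma counts of a library, with exact 95% binomial limits of at most 1.63 percentage points either way, which cover counting error only. Its share averaged 45.9% ± 3.43 with DMSO and 46.0% ± 5.15 with GSK-126 (SD, n = 3 each), so the groups differed by less than their spread. The antisense gene BC037039 lies over 1559 bases of the exons of Pcdhgc3. Reads of the 2 genes cannot be told apart there, so the level and share of Pcdhgc3 are less certain.

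Pcdhac2, which serotonergic axons need for tiling, came next, with 9.60, 13.2 and 13.0 CPM per kb of own exon in DMSO and 9.79, 14.0 and 9.66 with GSK-126. It made up 29.2% to 36.1% of alpha counts. Pcdhgc4, the gamma isoform that interneurons need to survive, had 6.37, 5.79 and 8.62 CPM per kb in DMSO and 5.08, 5.76 and 5.61 with GSK-126. Pcdhgc5, which binds GABA-A receptors, was at 0.865 to 2.12 CPM per kb. Pcdhac1 was the lowest C-type, at 0.291 to 1.39 CPM per kb and 8 to 33 counts per library. The order Pcdhgc3, Pcdhac2, Pcdhgc4, Pcdhgc5 and Pcdhac1 held without overlap of the libraries between neighbours except between Pcdhgc5 and Pcdhac1.

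The alternate alpha genes spanned a 17.5-fold range of mean level per kb of own exon, from 0.3802 CPM in Pcdha4 to 6.67 CPM in Pcdha12, the last alternate exon before the C-types. The level of Pcdha4 rests on 0 to 6 counts per library over an own exon of 494 bases, and is uncertain. Without Pcdha4 the range was 13.8-fold and started at Pcdha8, with 0.316 to 0.647 CPM per kb. Pcdha12 was at 5.59, 8.66 and 5.97 CPM per kb in DMSO and 4.59, 8.62 and 6.58 with GSK-126. All 6 values lay above the highest of Pcdha9, the next alternate gene by mean, which was at 1.59 to 4.43 CPM per kb, while Pcdha3 reached 4.84. Level and order along the cluster had a Spearman rho of 0.51 over the 11 alternate genes, a description only, since all points come from the same libraries.

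In the beta cluster 21 of 22 genes lay within a 6.09-fold range, from 0.946 CPM per kb of own exon in Pcdhb4 to 5.76 in Pcdhb17. Pcdhb17 was at 4.39 to 6.96 CPM per kb, which overlapped with Pcdhb20, at 3.93 to 7.05. The remaining gene, Pcdhb1, which lies at the start of the cluster, had 0, 2 and 1 counts with DMSO and 1, 0 and 0 with GSK-126. These values do not exceed 3 counts, the limit that a count of 0 allows (0.227 to 0.401 CPM per library), so Pcdhb1 was not detectable at this depth. Levels were higher towards the end of the beta cluster, with a Spearman rho of 0.63 over 22 genes and 0.57 without Pcdhb1, as a description.

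Gamma A genes were the most even, with a 3.06-fold range from 2.25 CPM per kb of own exon in Pcdhga5 to 6.88 in Pcdhga11, and with Pcdhga7 next to the highest at 5.72 to 7.64. Gamma B genes ran from 0.724 CPM per kb in Pcdhgb8, annotated as a polymorphic pseudogene, to 10.3 in Pcdhgb6 and 8.85 in Pcdhgb7. The libraries of Pcdhgb6 (7.81 to 12.8) and Pcdhgb7 (6.69 to 10.6) overlapped. Median level per kb was 2.00 CPM for alternate alpha genes, 2.07 for beta, 4.15 for gamma A and 2.66 for gamma B genes. Runs identical to another member were found in 11 of 11 alternate alpha, 11 of 22 beta, 2 of 12 gamma A and 6 of 7 gamma B genes. The classes are thus not counted with equal certainty.

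**Figure D1:**
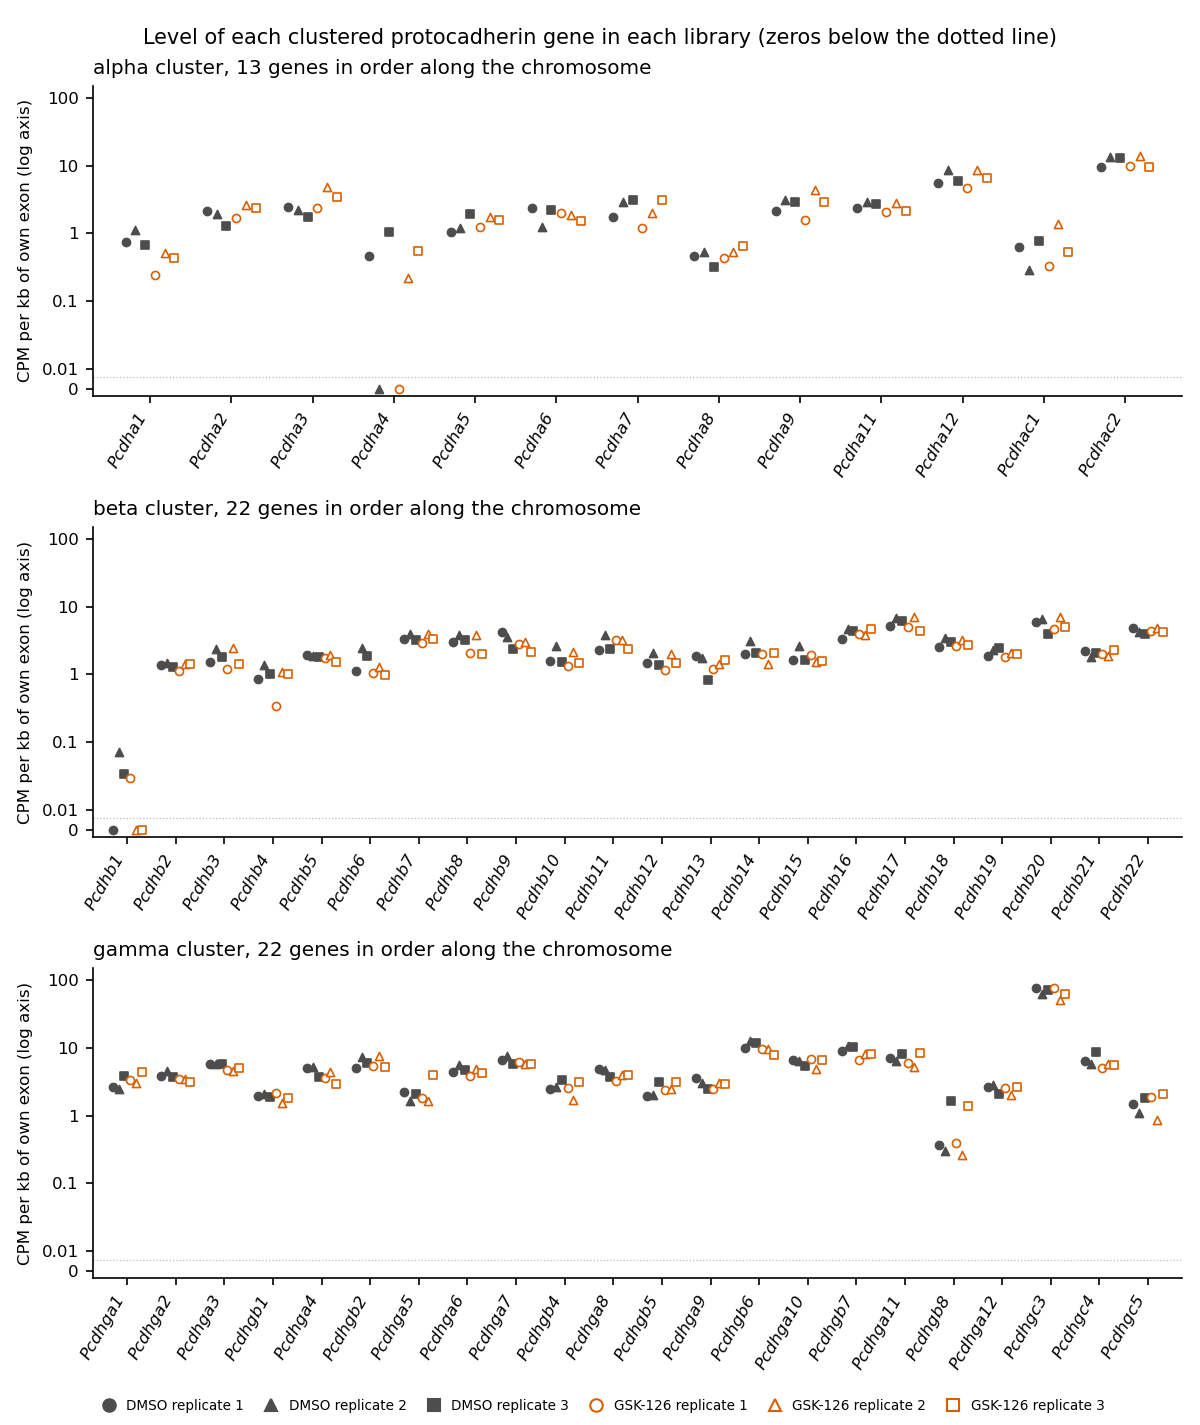
CPM per kb of own exon (log axis, zeros drawn below the dotted line) for each of the 57 genes in order along the chromosome, with 1 point for each of the 3 DMSO libraries (filled) and 3 GSK-126 libraries (open). Most genes sit between 1 and 10 CPM per kb in both groups, Pcdhgc3 stands above all others at 51.7 to 78.3, and Pcdha4 and Pcdhb1 are at 0 in some libraries.

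How evenly a cluster was used was measured as the exponential of the Shannon entropy of the levels per kb, which equals the number of genes if all are equal. For 22 beta genes it was 18.8 ± 0.339 with DMSO and 18.3 ± 0.346 with GSK-126, and for 19 gamma A and B genes it was 16.1 ± 0.378 and 16.5 ± 0.610 (SD, n = 3 each). For 11 alternate alpha genes it was 8.40 ± 0.739 and 8.17 ± 0.367. The groups overlapped in all 3 sets. A mixture of neurons that each use few isoforms can give such even sums, and what any CGN expressed is not seen in these data.

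With GSK-126, none of the 55 members tested passed an adjusted p of 0.05, in either direction. The edgeR quasi-likelihood test without the block called 0 members, with a smallest adjusted p of 0.953, and 0 (0%) of all 16729 tested genes. At an unadjusted p under 0.05 it had 3 members and 3.98% of all tested genes. With the replicate block it called 0 members, with a smallest adjusted p of 0.0781, while it called 1412 (8.44%) of all tested genes, 561 (3.35%) higher and 851 (5.09%) lower. There, 6 members and 21.5% of all tested genes had an unadjusted p under 0.05. Members were measured less precisely in that fit, with a median SE of 0.197 on the log2 scale against 0.138 for all tested genes. The shares called therefore do not compare genes of equal precision. DESeq2 called 0 members without the block (0.144% of all genes with an adjusted p) and 0 with it (7.71%), with 1 member at an unadjusted p under 0.05 in each (2.31% and 7.35% of all genes). The independent filtering of DESeq2 gave an adjusted p to 51 and 32 of the 57 members in those fits.

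A missed threshold does not show that a gene kept its level, so the intervals matter. In the fit with the block, the 95% interval of the log2 fold change lay within 1 either way for 48 of 55 members and within 0.5 for 17, and 7 members had wider intervals. The widest bounds were -2.11, in Pcdha1, and 1.45, in Pcdhac1, both genes with few counts. In the fit without the block, the interval lay within 1 either way for 44 of 55 members.

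The direction of the fold changes was uneven. In the fit without the block, 41 of 55 members (74.5%) had a log2 fold change below 0, against 51.2% of all tested genes, and the median was -0.10 against -0.01 for all tested genes. The alpha cluster had 6 of 12 tested genes lower (median 0.03), the beta cluster 17 of 21 (median -0.10) and the gamma cluster 18 of 22 (median -0.16). The medians of all 3 clusters moved when single libraries were left out. Leaving out GSK-126 replicate 2 gave medians of -0.27 for alpha, -0.173 for beta and -0.0633 for gamma. Leaving out GSK-126 replicate 1 gave 0.23 for alpha and -0.0108 for beta. The beta median became -0.00363 when DMSO replicate 2 was dropped and -0.175 when DMSO replicate 3 was dropped. Within replicate pairs, 15 members (27.3%) were lower with GSK-126 in all 3 pairs and 1, Pcdhga1, was higher in all 3, against 22.8% and 19.5% of all tested genes. The values of the groups did not overlap for 6 members, all lower (10.9%), against 4.72% of all tested genes in each direction.

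**Figure D2:**
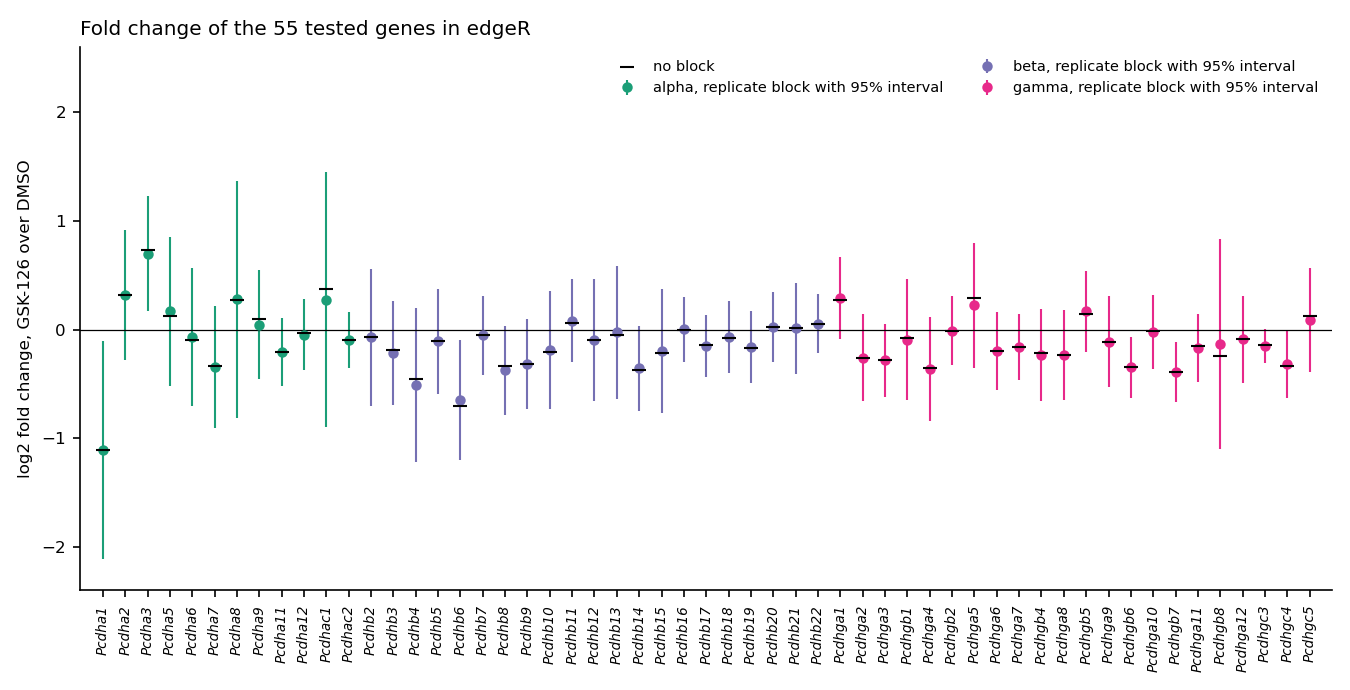
Log2 fold change of GSK-126 over DMSO for the 55 tested genes in order along the chromosome, from edgeR with the replicate block (points, with 95% intervals) and without it (black dashes). The intervals of 6 genes leave out 0 before adjustment for all genes tested, and most beta and gamma points lie slightly below 0.

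In the alpha cluster the members with the smallest p were Pcdha1, Pcdha3 and Pcdha11. Pcdha1, the first variable exon of the cluster, had 16, 30 and 19 counts with DMSO and 8, 12 and 8 with GSK-126, which was 1.85, 2.80 and 1.65 CPM against 0.606, 1.29 and 1.07. All 3 DMSO values were above all GSK-126 values, and the log2 fold change was -1.11 ± 0.46 (SE, adjusted p = 0.953 in edgeR without the block, 0.178 with it). Pcdha3 went the other way, with 5.998, 5.50 and 4.26 CPM in DMSO and 5.84, 11.95 and 8.41 with GSK-126. The value of GSK-126 replicate 1 lay among the DMSO values, and the log2 fold change was 0.73 ± 0.32 (SE, edgeR adjusted p = 0.953 without the block, 0.104 with it). Without replicate pair 1, the edgeR fit with the block called Pcdha3 higher, by 1.07 on the log2 scale (adjusted p = 0.00914). The log2 fold change was 0.46 without pair 2 and 0.57 without pair 3 in that fit, and 0.45 without GSK-126 replicate 2 in the fit without the block, with no call in any of these. Pcdha11 had 16.7, 20.8 and 19.6 CPM in DMSO and 14.6, 19.9 and 15.1 with GSK-126, with overlapping groups. Pcdha2, which lies between Pcdha1 and Pcdha3, was at 3.22 to 6.57 CPM in overlapping groups.

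Among the beta genes, Pcdhb6 had 4.27, 9.23 and 6.95 CPM with DMSO and 4.02, 4.85 and 3.74 with GSK-126. It was lower in each pair but the groups overlapped, and the log2 fold change was -0.70 ± 0.33 (SE, edgeR adjusted p = 0.953 without the block, 0.153 with it). It was -0.42 without DMSO replicate 2. Pcdhb14 had 17.5, 26.9 and 18.0 CPM with DMSO and 17.5, 12.5 and 18.3 with GSK-126, close within pairs 1 and 3 and far apart in pair 2. Pcdhb9 was at 12.8, 10.9 and 7.30 CPM in DMSO and 8.72, 9.37 and 6.68 with GSK-126, lower in each pair within overlapping groups. Pcdhb4, the lowest tested beta gene, ran from 1.29 to 5.13 CPM with its lowest value in GSK-126 replicate 1. The log2 fold changes of the 21 tested beta genes ran from -0.70 to 0.06.

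Of the gamma genes, Pcdhgb7 (chromosome 18, 37751600 to 37841873) had the smallest p of all members with the block. It had 23.4, 27.5 and 27.2 CPM with DMSO and 17.4, 21.3 and 20.97 with GSK-126. The groups did not overlap, each pair was lower by a like amount (-0.42, -0.36 and -0.37 on the log2 scale), and the log2 fold change was -0.39 ± 0.16 (SE, edgeR adjusted p = 0.953 without the block, 0.0781 with it). The antisense gene Gm26672 (41.7 to 47.5 CPM) lies over 771 bases of the exons of Pcdhgb7, where reads of the 2 genes cannot be told apart. Pcdhgb6 had 26.1, 32.8 and 30.1 CPM with DMSO and 24.6, 25.2 and 20.0 with GSK-126, again without overlap, with a log2 fold change of -0.35 ± 0.16 (SE, edgeR adjusted p = 0.953 without the block, 0.129 with it). Pcdhgc4 had 22.1, 20.1 and 29.98 CPM against 17.7, 20.0 and 19.5, without overlap, although DMSO replicate 2 and GSK-126 replicate 2 lay close. Pcdhga2 and Pcdhga3 were the other gamma members without overlap, at 9.65 to 11.7 against 8.01 to 9.10 CPM and at 15.01 to 15.3 against 11.95 to 13.1 CPM. An exact two-sided permutation test of 3 against 3 libraries cannot go below p = 0.1. Every gene without overlap has that p by construction, so the test adds nothing here. Pcdhgc3 was lower in each pair within overlapping groups, with a log2 fold change of -0.14 ± 0.17 (SE, edgeR adjusted p = 0.953 without the block, 0.239 with it), and its interval with the block ran from -0.31 to 0.00205. The highest gamma A genes, Pcdhga11 (13.7 to 22.2 CPM) and Pcdhga7 (17.7 to 23.7 CPM), had overlapping groups. Pcdhga5 was at 4.20 to 5.77 CPM in 5 libraries and at 10.2 in GSK-126 replicate 3.

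Summed over a cluster, the gamma genes had 534, 499 and 532 CPM with DMSO and 506, 418 and 485 with GSK-126. The beta genes had 236, 291 and 233 CPM against 218, 260 and 222. Both sums were lower with GSK-126 in each pair, by 0.16 ± 0.092 for gamma and 0.12 ± 0.046 for beta on the log2 scale (mean and SD of 3 pairs), and in both the groups overlapped. The log2 ratio of the group means was -0.12 for beta and -0.15 for gamma. Leaving out GSK-126 replicate 2 moved these ratios to -0.205 and -0.0741. The beta ratio became -0.00824 when DMSO replicate 2 was dropped and -0.0736 when GSK-126 replicate 1 was dropped. The alpha genes had 92.7, 117 and 110 CPM against 82.2, 132 and 100.04, lower in pairs 1 and 3 and higher in pair 2. Without Pcdhgc3 the gamma sum was 269.5, 286 and 290 CPM against 244, 243 and 269.7, so the highest GSK-126 library lay just above the lowest DMSO library. All 57 genes together had 863, 908 and 875 CPM with DMSO and 807, 810 and 807 with GSK-126, a log2 difference of -0.13 without overlap. These sums are descriptions of the chosen genes and carry no test.

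**Figure D3:**
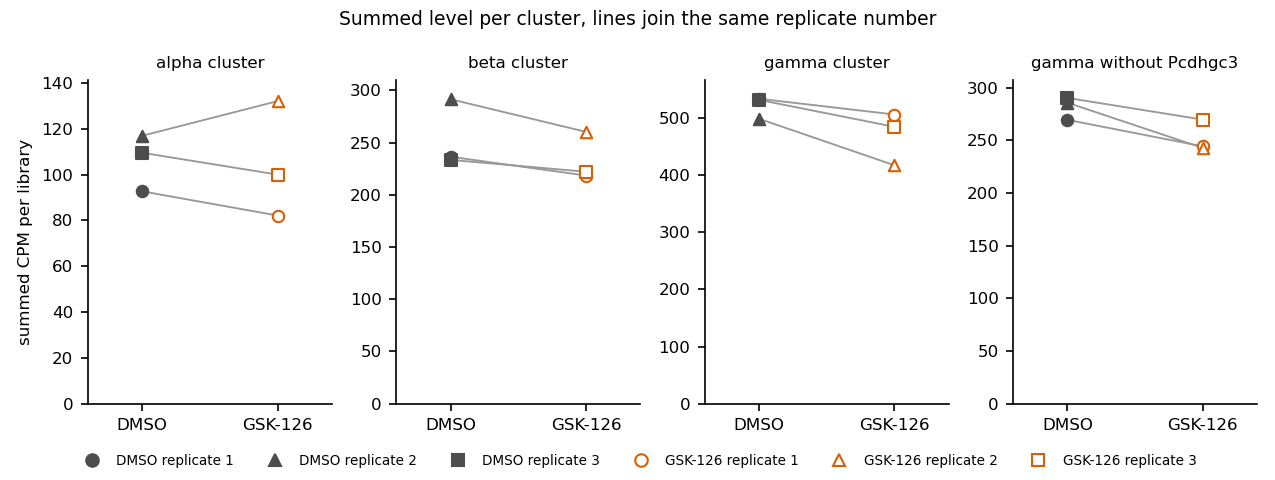
Summed CPM of the alpha, beta and gamma genes and of the gamma genes without Pcdhgc3 in each library, with DMSO on the left and GSK-126 on the right of each panel and lines joining libraries of the same replicate number. Every beta and gamma line slopes down, while the alpha line of replicate 2 goes up from 117 to 132 CPM.

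Markers of cell types moved over the same libraries. The granule neuron list summed to 3233, 5420 and 3686 CPM with DMSO and 2536, 3946 and 2718 with GSK-126, lower in each pair. In edgeR with the block, 7 of its 10 genes were called lower and 1 higher. Over all tested genes that fit called 5.09% lower and 3.35% higher, the shares to set beside each marker list. The largest falls were in Slc17a7 (-1.95 on the log2 scale), Gabra6 (-1.19) and Etv1 (-1.17). Pax6 (-0.07) and Zic2 (-0.20) were not called, and Barhl1 rose (0.33). The paper counts Gabra6 among late genes and reported lower RNA of late genes after treatment from DIV3. A lower list sum therefore does not by itself mean fewer granule neurons. The list of GABAergic and Purkinje markers (7 genes) summed to 209 to 242 CPM with DMSO and 160 to 194 with GSK-126, with 3 genes called lower and none higher, while of its Purkinje cell genes Car8 and Pcp2 were at 0.134 to 2.80 CPM and Calb1 at 7.92 to 22.3 CPM. The microglia sum was higher with GSK-126 in each pair (408, 188 and 320 against 502, 268 and 375 CPM), with 2 of 7 genes called higher. Astroglia sums were 7321, 2330 and 4028 against 7661, 2230 and 4004 CPM, with 1 of 7 genes called higher. Oligodendrocyte lineage genes summed to 395 to 725 CPM with DMSO and 467 to 738 with GSK-126 (1 of 7 called higher), progenitor genes to 353 to 562 and 388 to 644 (1 of 3 tested called higher), and vascular and fibroblast genes to 5113 to 7112 and 6398 to 7833 (3 of 8 tested called higher). Atoh1, which defines granule neuron progenitors, was at 0 to 0.754 CPM. The part of these shifts in the beta and gamma values was not tested.

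The members also differed between replicate numbers. In the fit with the block, the replicate number itself had an edgeR adjusted p under 0.05 for 8 of 55 members (14.5%), against 31.4% of all tested genes. Pcdhgb8 was at 0.923 and 0.746 CPM in DMSO replicates 1 and 2 and at 4.08 in replicate 3, and at 0.985, 0.646 and 3.47 CPM with GSK-126, a 5.43-fold range of replicate means (adjusted p = 0.00258). Pcdhgb8 is annotated as a polymorphic pseudogene, a gene intact in some strains and not in others. Pcdhgc3 was lowest in replicate 2 of both groups (adjusted p = 0.00285). Pcdhgc5 was lowest there too, with 6.92, 5.13 and 8.52 CPM in DMSO and 8.72, 3.98 and 9.75 with GSK-126 (adjusted p = 0.0286).

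Other members had their highest replicate mean in replicate 2. Pcdha12 had 13.8, 21.4 and 14.8 CPM in DMSO and 11.4, 21.3 and 16.3 with GSK-126 (edgeR adjusted p = 0.0106 for the replicate number). Pcdha9 had 5.31, 7.83 and 7.21 CPM against 3.94, 10.99 and 7.08 (adjusted p = 0.0291). Pcdhac2 (adjusted p = 0.0484) and Pcdhb20 (adjusted p = 0.0383) were also highest in replicate 2, and Pcdha7 was highest in replicate 3 (adjusted p = 0.0439). Replicate 2 of both groups had the lowest astroglia sums, 2330 and 2230 CPM, and the highest granule neuron sums, 5420 and 3946 CPM. The part of these marker levels in the replicate differences was not tested.

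**Figure D4:**
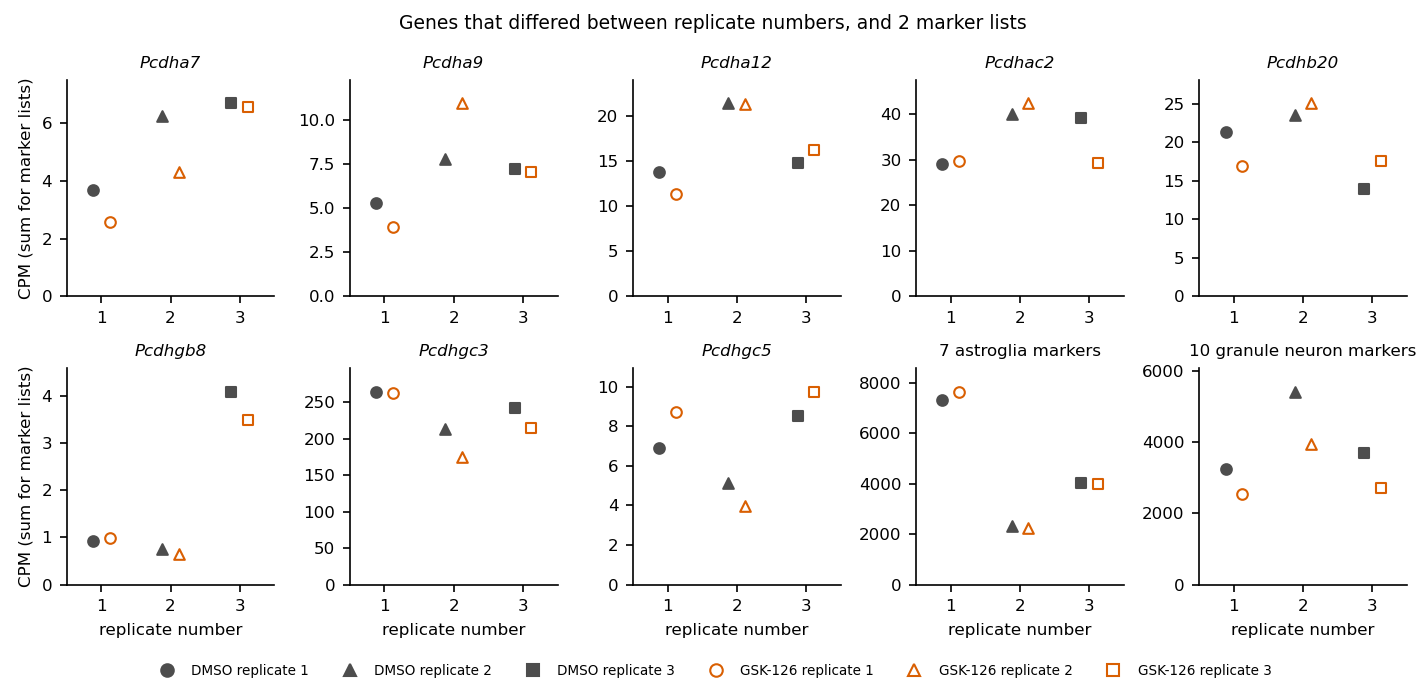
CPM in each library of the 8 genes whose level differed between replicate numbers, and summed CPM of the astroglia and granule neuron markers, with the replicate number on the horizontal axis, DMSO filled and GSK-126 open. Pcdhgb8 is high in replicate 3 of both groups, and Pcdhgc3 and the astroglia sum are lowest in replicate 2 of both groups.

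The delta protocadherins, a group of protocadherins outside the clusters, are separate genes without shared exons. Of 10 tested, edgeR called 0 without the block (1 at an unadjusted p under 0.05; 0 in DESeq2), and 1 higher and 2 lower with it, against 3.35% and 5.09% of all tested genes. Pcdh1 had 108, 136 and 128 CPM with DMSO and 96.2, 99.6 and 98.2 with GSK-126 and fell by 0.33 on the log2 scale with the block (adjusted p = 0.0141). Pcdh9 had 58.9, 88.9 and 60.7 against 42.7, 59.4 and 54.6 CPM and fell by 0.40 (adjusted p = 0.0147). Pcdh17 had 40.8, 28.1 and 36.7 against 48.8, 37.0 and 50.6 CPM and rose by 0.37 (adjusted p = 0.0373). DESeq2 with the block called only Pcdh1 of these 3 (adjusted p = 0.0324, against 0.0543 for Pcdh9 and 0.13 for Pcdh17). Pcdh11x was at 18.6 CPM in DMSO replicate 2 and at 3.41 to 5.49 in the other libraries.

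The genes that shape promoter choice were examined next. CTCF and cohesin join a protocadherin promoter to a distant enhancer. Ctcf had 115, 126 and 117 CPM with DMSO and 100.4, 110 and 105 with GSK-126, and its groups did not overlap. All 10 insulator and cohesin genes had a fold change below 0 (median -0.16), against 51.2% of all tested genes. Of the 10, 8 were lower in each pair, against 22.8% of all tested genes. Lower values without overlap were found for 3 of them, Ctcf included, against 4.72%. The edgeR test called 0 of them with and without the block. At an unadjusted p under 0.05 it had 4 and 0 of them, against 21.5% and 3.98% of all tested genes. DESeq2 called 0 of them with and without the block. Of 12 genes of DNA methylation and heterochromatin, edgeR and DESeq2 without the block called 0, with 0 at an unadjusted p under 0.05 in edgeR. With the block edgeR called 2 lower and 0 higher, against 5.09% and 3.35% of all tested genes. These were Dnmt3a, a DNA methyltransferase (251, 390 and 296 against 215, 281 and 258 CPM, fell by 0.30, adjusted p = 0.014) and Atf7ip, a partner of SETDB1 (fell by 0.31, adjusted p = 0.015). Setdb1 and Smchd1, both known to silence protocadherin promoters, had log2 fold changes of -0.05 and -0.27 with adjusted p of 0.783 and 0.0953 in edgeR with the block. Ezh2 itself, the target of GSK-126, was at 43.7, 36.1 and 29.8 CPM with DMSO and 41.8, 32.7 and 26.2 with GSK-126, with overlapping groups.

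Of 18 genes whose proteins bind clustered protocadherins or act after them, edgeR and DESeq2 without the block called 0. At an unadjusted p under 0.05 edgeR had 1 there, against 3.98% of all tested genes. With the block edgeR called 3 lower and 0 higher, against 5.09% and 3.35% of all tested genes. Wasf1 and Cyfip2, of the WAVE complex that drives actin branching, fell by 0.37 (adjusted p = 0.00742) and 0.33 (adjusted p = 0.00706). Nlgn1, a neuroligin, fell by 0.41 (adjusted p = 0.0492), which DESeq2 with the block did not call (adjusted p = 0.19), while it called Wasf1 and Cyfip2. The kinases Ptk2 and Ptk2b, which the constant parts of the proteins inhibit, had log2 fold changes of 0.07 and 0.47 with edgeR adjusted p of 0.706 and 0.0841, and Ptk2b was higher in each pair (10.2, 10.7 and 27.0 against 19.3, 13.9 and 30.5 CPM). Axin1 was at 39.1 to 45.9 CPM in overlapping groups. Of the 6 proteases that cleave these proteins, Adam10 and the gamma-secretase subunits, edgeR called 0 with and without the block, and DESeq2 called 0. At an unadjusted p under 0.05 edgeR had 1 with the block and 0 without it, against 21.5% and 3.98% of all tested genes.

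Genes around the clusters were taken by position. Taf7, a subunit of the general transcription factor TFIID, lies between the beta and gamma clusters and had 14.5, 17.3 and 16.9 CPM with DMSO against 11.2, 14.4 and 11.8 with GSK-126, without overlap (log2 fold change -0.38 ± 0.16, SE, edgeR adjusted p = 0.167 with the block). Slc25a2, a mitochondrial ornithine carrier next to Taf7, was too low to be tested, at 0.461, 0.559 and 0.435 CPM with DMSO and 0.0758, 0 and 0 with GSK-126. Of the 5 tested neighbours before the alpha cluster and the 5 after the gamma cluster, 8 had a fold change above 0 and 2 below. Among all tested genes, 51.2% were below 0. Neither edgeR nor DESeq2 called any of these neighbours, with or without the block. At an unadjusted p under 0.05 edgeR had 1 with the block and 0 without it, against 21.5% and 3.98% of all tested genes. Wdr55, before the alpha cluster, had 11.2, 8.58 and 9.04 CPM against 11.9, 12.9 and 10.2, and Rell2, after the gamma cluster, had 24.9, 38.7 and 28.4 against 27.4, 52.2 and 36.3.

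The other member that was not tested, Pcdha4, had 2, 0 and 6 counts with DMSO and 0, 1 and 2 with GSK-126. Reads on the 2410 bases shared with Gm42416 were set aside, so these counts do not show that its level was low. Pcdha8 was low but tested, with 10, 14 and 9 counts against 14, 12 and 12.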

How the data were processed

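RNA of 3 DMSO and 3 GSK-126 cultures was measured by polyA RNA-seq. Per the study's methods and the submitters' processing notes, the authors trimmed reads with Trimmomatic 0.38, aligned them with STAR 2.7.2b, counted them on exons with HTSeq, and deposited raw counts per gene symbol for each library. The strand setting and the Gencode release were not given in the sources used here. Symbols were matched to GENCODE M21 (GRCm38) for positions and own exon length. Antisense genes that lie wholly inside member exons had 5 to 55 counts per library, which counting without strand leaves at 0, so lengths were taken per strand. Whether the kit marked strand is not given, and reads of a member and of an antisense gene over it cannot be told apart. This touches 13 members, under 9 antisense genes. Lines that name no gene held 58.7% to 60.7% of reads and were left out. Reads that fell on no counted exon made up 45.3% to 46.6% of all reads, and the cause was not tested.

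Counts were tested in R 4.3.3 by the quasi-likelihood test of edgeR 4.0.16 with TMM scaling and filterByExpr, over all 16729 genes kept, with Benjamini-Hochberg adjustment and a threshold of 0.05. Replicate numbers 1 to 3 stand in the labels. Deviations from the group means correlated at 0.56, 0.63 and 0.49 between libraries of the same number and at 0.0064 or less otherwise, so the numbers pair the libraries, and a fit with the replicate block was run. The biological coefficient of variation was 24.0% without and 9.74% with the block. DESeq2 1.42.0, other scalings and filters, an adjusted p under 0.01, and fits without each library or pair were alternatives. The replicate number test, own exon length over both strands and the gamma sum without C-type genes were added after seeing the data. Fits were tested on simulated data. Pair ratios add 0.5 CPM. P-values measure the spread between these cultures.

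Members and gene lists were chosen with earlier results of these data known. The genes named are all C-types, the 2 highest and the lowest tested per class by level, the 3 smallest p per cluster, members not tested, and list genes called with the block. Others, such as Pcdha2, Pcdha7, Pcdhga1, Pcdhga2, Pcdhga3, Setdb1 and Rell2, were picked after their values were seen. The lists cover delta protocadherins, insulator and cohesin genes, silencing genes, partners and effectors, and proteases, neighbours by position, and 7 marker lists. The result of 1 gene of the silencing list is not reported here, and the counts leave it out.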

Additional observations from a re-analysis of the deposited data

How the results depend on the processing

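The members had 0 calls in each direction under every scaling, filter, threshold and DESeq2 fit and without each library. The fit with the replicate block, which called 561 genes higher and 851 lower over all genes, changed no call of a member. Without replicate pair 1 it called 1 member, Pcdha3, higher (log2 fold change 1.07), with 417 genes higher and 671 lower over all genes. Without pair 2 these counts were 337 and 496, and without pair 3 558 and 719. DESeq2 with the replicate block called 351 genes higher and 600 lower, DESeq2 alone 19 and 2, and edgeR with no filter 9 and 1, while edgeR without any library called 0. Without each library in turn, the median log2 fold change ran from -0.27 to 0.23 for alpha and from -0.175 to -0.00363 for beta, and the log2 ratio of summed CPM from -0.225 to 0.125 for alpha and from -0.205 to -0.00824 for beta. Gamma kept its direction in both measures (-0.202 to -0.0633 and -0.21 to -0.0741). Per kb of the full exon length, the median level was 0.935 CPM for alpha and 2.11 for gamma genes, and per kb free of genes on either strand 2.28 for alpha, by construction of the lengths.

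Among the named genes, 13 that were not called changed sign under some setting. In fits with the replicate block that leave out a pair, Pcdha8 was at -0.0639, Pcdha9 at -0.213, Pcdha12 at 0.0775, Pcdhac1 at -0.753, Pcdhac2 at 0.059, Pcdhb14 at 0.0137, Pcdhb17 at 0.00906, Pcdhb20 at -0.0131 and -0.114, Pcdhga5 at -0.165 and Pcdhgc5 at -0.0385. With total counts Pcdha12 was at 0.00512. Without each library the ranges that cross 0 were -0.305 to 0.427 for Pcdha9, -0.261 to 0.188 for Pcdha12, -0.436 to 0.771 for Pcdhac1, -0.279 to 0.0034 for Pcdhac2, -0.175 to 0.178 for Pcdhb20, -0.209 to 0.527 for Pcdhga5, -0.373 to 0.000834 for Pcdhga11, -1.22 to 0.154 for Pcdhgb8, -0.285 to 0.00994 for Pcdhgc3 and -0.0994 to 0.441 for Pcdhgc5. The cause was not tested. Depth limits the members with few counts, since 6 had under 10 counts in some library and the median over tested members was 101 counts.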

Other observations

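Antisense genes over the clusters gave values that belong to no comparison. BC037039, on the opposite strand of Pcdhgc3, shares 1559 bases with its exons and had 165, 147 and 162 CPM with DMSO and 175, 114 and 156 with GSK-126, which was 62.2% to 72.7% of the counts of Pcdhgc3 in the same library. It was lowest in replicate 2 of both groups, as was Pcdhgc3. Gm26672, over the exons of Pcdhga10, Pcdhgb7, Pcdhga11 and Pcdhga12, had 46.6, 47.5 and 46.2 CPM with DMSO and 42.8, 41.7 and 46.7 with GSK-126. Gm10545, over Pcdha11 and Pcdha12, was at 9.85 to 18.2 CPM with its highest value in DMSO replicate 2. Gm37118, which lies wholly inside Pcdhga1, had 37 to 55 counts per library. Whether these counts come from antisense transcripts or from the protocadherin genes cannot be told apart, and the same holds for member counts on the shared bases.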
